A study of Oryctolagus cuniculus with 6 samples.

Results

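Prostaglandins and leukotrienes are lipid signals made from arachidonic acid, and 8 genes of their synthesis and breakdown are described here in rabbit trachea: PLA2G4A, PTGS1, PTGS2, PTGES, HPGD, ALOX5, ALOX5AP and LTA4H. The genes were chosen by name, with earlier results of these data known. Each of the 8 had 1 row among the 29587 gene rows of the deposited count table. Enough reads for the test were present in 7 of them, with at least 20 counts in every library; HPGD was too rare. In mucosa exposed to a hyperinflated cuff, ALOX5AP transcripts rose 6.41-fold. HPGD, rare in controls, had no read with high cuff pressure. PTGES stood higher in every high cuff pressure library but missed the threshold of the test. PTGS2, the inducible cyclooxygenase, did not separate the groups.

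Arachidonic acid is released from membrane phospholipids by phospholipases and then enters either of the routes to these mediators. Cyclooxygenases turn it into prostaglandin H, from which terminal synthases make prostaglandin E and other prostanoids; a dehydrogenase then inactivates prostaglandin E. In leukocytes, 5-lipoxygenase acts on arachidonic acid handed over by its activating protein and forms leukotriene A, which a hydrolase converts to leukotriene B, an attractant of neutrophils. In the airway, prostaglandin E acts on epithelium and smooth muscle, and leukotrienes are known for leukocyte recruitment, mucus secretion and bronchoconstriction.

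PolyA RNA of tracheal mucosa was sequenced from New Zealand rabbits aged 3 months, in 3 high cuff pressure libraries and 3 control libraries. In the former, a 3.0 mm tube was placed 13 cm deep in the trachea and its cuff was held at 35 cmH2O for 2 h. How controls were handled and when tissue was taken are not stated in the labels. The labels state 3 per group without saying that the libraries came from separate animals, so the p-values cover only the library-to-library spread, which may be technical.

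Libraries held 10501734 to 14415754 counts. Over all genes, 503 of the 13724 tested were higher and 222 lower with high cuff pressure at an adjusted p under 0.05 (quasi-likelihood test of edgeR, adjusted by Benjamini-Hochberg). Higher genes made up 69.4% of these calls, against 55.5% with DESeq2, 81.1% with a replicate block, 23.9% when libraries were scaled by total counts only, and 19.9% or 21.8% on the FPKM scale with a pseudocount of 1 or 0.1. Scaling by total counts placed the median gene at a log2 fold change of -0.40, against -0.01 with the trimmed mean (TMM) scaling used here. Mitochondrial genes took 27.8% to 30.5% of counts with high cuff pressure and 5.28% to 11.5% in controls. The labels call the material epithelial cells, yet markers of smooth muscle, fibroblasts, endothelium and leukocytes were read in all 6 libraries. High cuff pressure replicate 1 stood apart: its smooth muscle markers summed to 473 CPM (read counts scaled to library size, TMM-normalised) against 4080 to 8882 CPM in the other 5 libraries. Its secretory cell markers summed to 4206 CPM against 10511 to 38792 CPM. In such bulk tissue, fewer cells of a type and less RNA per cell cannot be told apart, and the part of cell makeup in the results below was not tested. With the mitochondrial genes left out of the fit, edgeR called 500 genes higher and 217 lower, and ALOX5AP (log2 fold change 2.67, edgeR adjusted p = 0.034) and PTGES (1.08, 0.073) stayed on the same side of the threshold.

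Of the 7 tested genes, 1 was higher (ALOX5AP) and 0 were lower with high cuff pressure at an edgeR adjusted p under 0.05, where 3.67% of all tested genes were higher and 1.62% lower. At an unadjusted p under 0.05, the edgeR test gave 2 higher (ALOX5AP and PTGES) and 0 lower, against 15.6% and 13.6% of all genes. DESeq2 called the same 2 genes higher and 0 lower, against 10.6% and 8.53%. In 3 of the 7, PTGES, ALOX5 and ALOX5AP, the high cuff pressure libraries lay wholly above the controls, as did 18.6% of all tested genes. None of the 7 lay wholly below, against 18.7%. The median log2 fold change of the 7 genes was 0.81, and that of all tested genes -0.01.

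**Figure D1:**
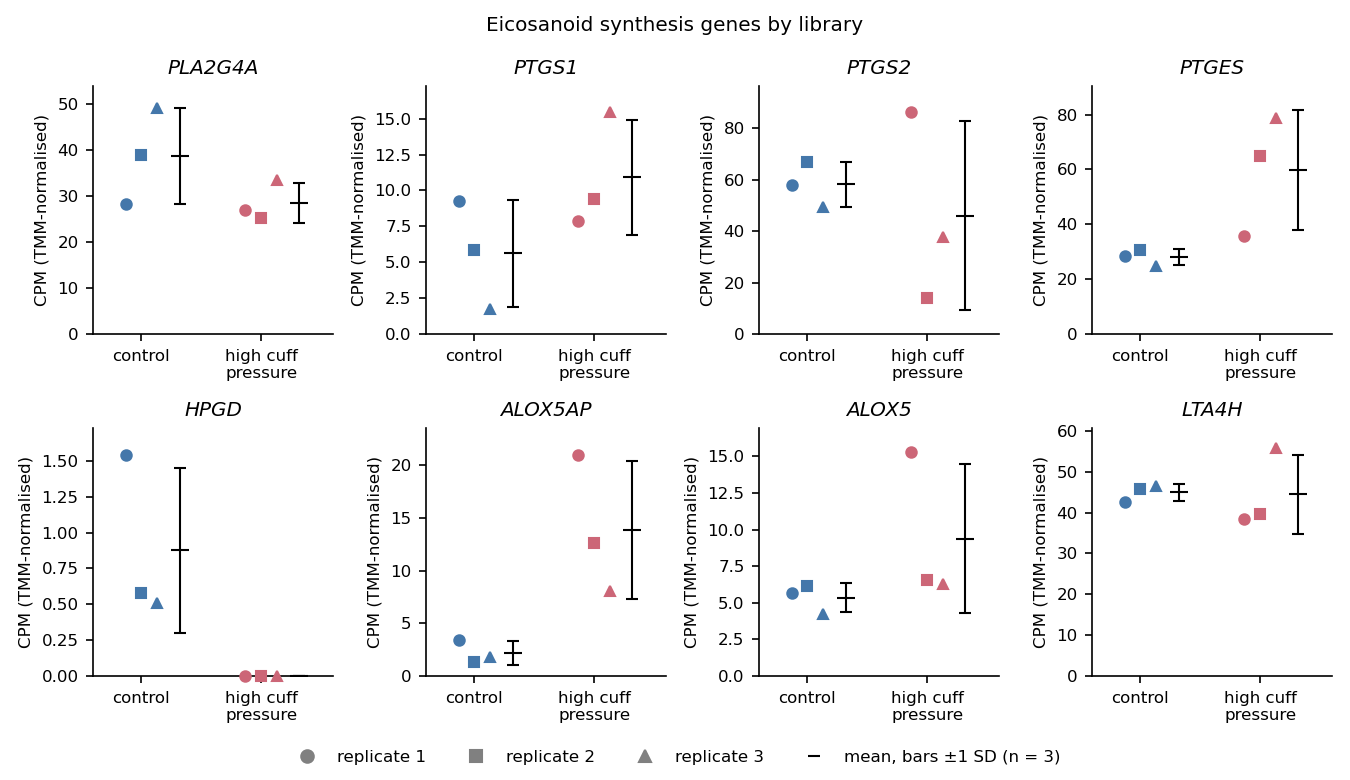
Each panel plots TMM-normalised CPM of 1 gene (vertical axis, starting at 0) in the 3 control and 3 high cuff pressure libraries, with marker shape giving the replicate and bars the mean ± 1 SD. ALOX5AP lies at 8.11 CPM or more in the high cuff pressure libraries and at 3.42 CPM or less in controls, HPGD lies at 0 with high cuff pressure, and the PTGS2 points of the high cuff pressure group lie on both sides of the controls.

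Per length of gene, in the deposited FPKM values (counts scaled by gene length and library total), LTA4H was the most abundant of the 8 in controls at 25.9 ± 3.45 FPKM (SD, n = 3). PTGS2 and PTGES followed at 20.6 ± 3.86 and 19.7 ± 2.71 FPKM, and PLA2G4A at 19.4 ± 6.48 FPKM; each of these 3 means lay within 1 SD of the others. The leukocyte genes ALOX5 and ALOX5AP lay at 2.80 ± 0.563 and 1.05 ± 0.433 FPKM, PTGS1 at 1.38 ± 0.835 FPKM and HPGD at 0.898 ± 0.50 FPKM. With high cuff pressure PTGES had the highest mean, 32.0 ± 12.3 FPKM, ahead of LTA4H at 19.6 ± 5.199 FPKM and PTGS2 at 12.6 ± 10.3 FPKM, but the ranges of 1 SD around these means overlapped. ALOX5AP, at 5.23 ± 2.55 FPKM, had a higher mean than ALOX5, at 3.76 ± 2.14 FPKM, the reverse of their order in controls; these SDs overlap.

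PLA2G4A encodes cytosolic phospholipase A2 alpha, which frees arachidonic acid from membranes. Its row (ENSOCUG00000014644) spans chromosome 16 from 83421230 to 83552033 on the minus strand, in the coordinates of the deposited table, for which no genome build is named in the labels or file headers. High cuff pressure libraries held 26.9, 25.3 and 33.5 CPM, and controls 28.2, 38.9 and 49.1 CPM. Control replicate 1 lay inside the range of the high cuff pressure libraries, so the groups overlapped, although the other 2 controls were above all 3. The means were 28.6 ± 4.34 and 38.7 ± 10.4 CPM (SD, n = 3 each), and the log2 fold change of -0.44 ± 0.27 (SE) did not pass (edgeR adjusted p = 0.31). Its distance to PTGS2 on the same chromosome is 154609 bp, with 2 other gene rows between them.

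PTGS1 encodes the constitutive cyclooxygenase and lies on the unplaced scaffold GL018699 from 4844439 to 4872392, minus strand (ENSOCUG00000002530). It was read at 7.89, 9.41 and 15.5 CPM with high cuff pressure and at 9.23, 5.86 and 1.75 CPM in controls. The highest library was high cuff pressure replicate 3 and the lowest control replicate 3, while the other 4 lay between 5.86 and 9.41 CPM and were mixed. Its log2 fold change of 0.97 ± 0.57 (SE) did not pass (edgeR adjusted p = 0.29).

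PTGS2, the cyclooxygenase induced by cytokines and injury, lies on chromosome 16 from 83706643 to 83713353, plus strand (ENSOCUG00000016771). High cuff pressure libraries held 86.3, 14.1 and 37.6 CPM, and controls 57.9, 67.0 and 49.5 CPM. The controls were close together, whereas the high cuff pressure group held both the highest library of the 6, its replicate 1, and the lowest, its replicate 2. The log2 fold change of -0.34 ± 0.55 (SE) did not pass (edgeR adjusted p = 0.71). Leaving out high cuff pressure replicate 1 gave -1.16 (edgeR adjusted p = 0.092) and leaving out replicate 2 gave 0.093 (edgeR adjusted p = 0.90), so no direction is given for PTGS2.

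Between the cyclooxygenases, PTGS2 was the more abundant per length in every library. Of their summed FPKM it made up 93.9%, 67.7% and 77.2% with high cuff pressure and 89.8%, 94.1% and 97.5% in controls. High cuff pressure replicates 2 and 3 had the lowest shares of the 6, and replicate 1 lay among the controls. The log2 ratio of PTGS2 to PTGS1 counts differed by -1.88 (high cuff pressure minus control), not beyond the spread within the groups (two-sided p = 0.20 by exact permutation, adjusted over 3 ratios 0.20). With 3 libraries against 3 the smallest p this test allows is 0.10.

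PTGES encodes microsomal prostaglandin E synthase-1, the inducible enzyme that turns prostaglandin H into prostaglandin E. Its row (ENSOCUG00000023769) covers scaffold GL018933 from 351679 to 362196, plus strand. It was read at 35.9, 64.8 and 78.7 CPM with high cuff pressure and at 28.4, 30.7 and 24.9 CPM in controls. All high cuff pressure libraries were above all controls, replicate 1 by the smallest margin. In the deposited FPKM, scaled by total counts, replicate 1 (19.6 FPKM) lay below control replicate 2 (22.8 FPKM), so the groups overlapped on that scale.

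The mean level of PTGES was 2.14-fold higher, a log2 fold change of 1.10 ± 0.31 (SE), and missed the threshold (edgeR adjusted p = 0.073). DESeq2 called it (adjusted p = 0.015), as did edgeR with high cuff pressure replicate 1 left out (log2 fold change 1.36, adjusted p = 0.014); leaving out any other library gave edgeR adjusted p from 0.146 to 0.25. In the authors' deposited table its q was 0.044, where 8.89% of genes listed had a q under 0.05, but the gene was not marked as changed. The epithelial markers had their lowest high cuff pressure sum in the same library as PTGES: they summed to 2285, 3147 and 4374 CPM in high cuff pressure replicates 1, 2 and 3 and to 1710 to 1740 CPM in controls. KRT5 carried most of that spread, with 387, 945 and 2374 CPM against 327, 259 and 124 CPM. Positive log2 fold changes that did not pass were those of KRT5 (2.38), KRT8 (0.88), CLDN4 (0.67) and TP63 (0.03). Negative ones that did not pass were those of EPCAM (-0.34), CDH1 (-0.11) and FOXJ1 (-0.13). In KRT5, KRT8 and CLDN4 every high cuff pressure library lay above every control, as in 18.6% of all tested genes. Of the 8 epithelial markers tested, 1 (CLDN7) was higher and none was at 0; their part in the PTGES values was not tested.

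HPGD encodes 15-hydroxyprostaglandin dehydrogenase, which carries out the first step of prostaglandin inactivation. It lies on chromosome 2 from 52453983 to 52494219, minus strand (ENSOCUG00000016289). Controls held 18, 9 and 7 counts, or 1.54, 0.579 and 0.510 CPM, and each of the 3 high cuff pressure libraries held 0 counts. The groups did not overlap, and 14.1% of all genes with a read lay wholly lower with high cuff pressure in the same way. A count of 0 allows up to 3 counts, which is 0.227 to 0.353 CPM per library here and below every control.

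Set against 3 counts over the whole high cuff pressure group, and with the control counts taken as exact, HPGD was at least 8.81-fold lower. The 95% counting interval of the 34 control counts (exact Poisson) put this bound at 6.10 to 12.3. The bound ranged from 5.16 to 10.5 when each library was left out in turn, reaching 5.16 with high cuff pressure replicate 3 left out and 5.80 with control replicate 1 left out. Such intervals and floors cover counting error only. An exact permutation test over the 6 libraries gave two-sided p = 0.10, the smallest it can give. HPGD failed the filter on low counts and was not tested in the fit used for the other genes. Without a filter its edgeR adjusted p was 0.044, where 1.24% of 20174 genes were called lower and 2.65% higher. Leaving out high cuff pressure replicate 1 kept that call (edgeR adjusted p = 0.030). Leaving out any other library lost it: the edgeR adjusted p was 0.11 or 0.079 for high cuff pressure replicate 2 or 3, and 0.090, 0.082 or 0.069 for control replicate 1, 2 or 3. In the authors' deposited table HPGD was marked lower, with q = 0.000762, where 3.67% of the 19001 genes listed were so marked.

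The log2 ratio of PTGES to HPGD counts, with 0.5 added to each, was 9.51, 10.1 and 11.0 with high cuff pressure and 4.17, 5.65 and 5.51 in controls. The groups did not overlap (exact permutation test, two-sided p = 0.10, adjusted over 3 ratios 0.15). Since HPGD had no reads with high cuff pressure, the size of the difference, 5.10, rests on the added value and was 2.29 with 5 added.

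ALOX5AP, the 5-lipoxygenase activating protein, presents arachidonic acid to the lipoxygenase at the nuclear membrane. Its row (ENSOCUG00000008200) spans scaffold GL018702 from 1098771 to 1187536, plus strand. High cuff pressure libraries held 21.0, 12.6 and 8.11 CPM and controls 3.42, 1.29 and 1.82 CPM. The lowest high cuff pressure library, replicate 3, lay above the highest control, replicate 1.

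ALOX5AP means were 13.9 ± 6.54 and 2.18 ± 1.11 CPM (SD, n = 3 each), a 6.41-fold rise and a log2 fold change of 2.68 ± 0.51 (SE, edgeR adjusted p = 0.034). The call held in all 11 alternative settings that kept every library, with log2 fold changes from 1.55, on the log2(FPKM + 1) scale that understates low genes, to 2.69. It also held with high cuff pressure replicate 1 left out (log2 fold change 2.26, edgeR adjusted p = 0.027), or replicate 3 (2.96, 0.041). Leaving out high cuff pressure replicate 2 (0.10) or control replicate 1 (0.062), 2 (0.13) or 3 (0.15) lost it, at log2 fold changes of 2.75, 3.16, 2.41 and 2.57. Without control replicate 2 or 3, edgeR called no gene of the whole table. In the authors' deposited table ALOX5AP was marked higher, with q = 0.000119, where 3.97% of the genes listed were so marked.

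ALOX5 encodes 5-lipoxygenase itself and lies on chromosome 18 from 6719392 to 6757640, minus strand (ENSOCUG00000005428). It was read at 15.3, 6.59 and 6.29 CPM with high cuff pressure and at 5.64, 6.18 and 4.23 CPM in controls. Only high cuff pressure replicate 1 stood well above the controls; the other 2 exceeded control replicate 2 by a margin smaller than the spread within either group, and the groups overlapped in FPKM. The log2 fold change of 0.81 ± 0.43 (SE) did not pass (edgeR adjusted p = 0.24) and was 0.27 without high cuff pressure replicate 1.

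ALOX5 counts exceeded ALOX5AP counts in every control and were below them in every high cuff pressure library. The log2 ratio of ALOX5 to ALOX5AP was -0.46, -0.93 and -0.36 with high cuff pressure and 0.72, 2.23 and 1.20 in controls. The groups did not overlap and differed by -1.97 (exact permutation test, two-sided p = 0.10, the smallest possible, adjusted over 3 ratios 0.15). This ratio does not depend on how libraries were scaled, and leaving out any 1 library kept the difference between -1.54 and -2.30.

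**Figure D2:**
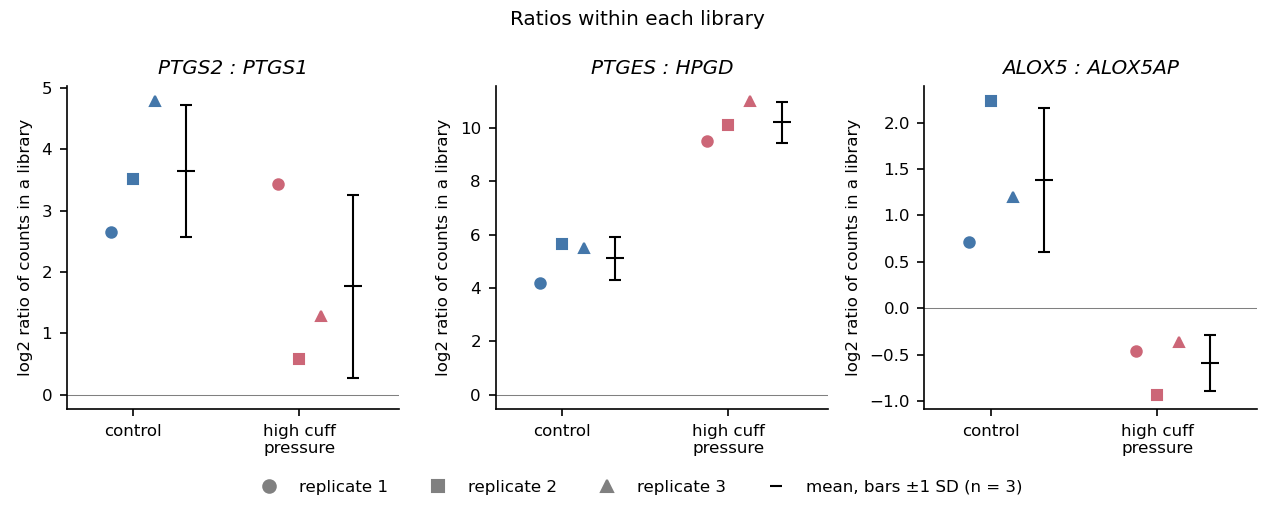
The vertical axis gives the log2 ratio of the counts of 2 genes within a library, with 0.5 added to each count; shapes give the replicate and bars the mean ± 1 SD of 3 libraries. ALOX5 to ALOX5AP lies above 0 in the 3 controls and below 0 in the 3 high cuff pressure libraries, PTGES to HPGD is separated with a size that depends on the added 0.5, and PTGS2 to PTGS1 overlaps.

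ALOX5 and ALOX5AP are known chiefly from myeloid cells, so markers of those cells are given beside them. The 12 neutrophil markers with a row summed to 6869, 3654 and 1510 CPM in high cuff pressure replicates 1, 2 and 3 and to 88.8, 16.7 and 438 CPM in the controls. Of the 11 tested, 7 were higher, and MMP8 was at 0 in all libraries. S100A9 made up most of the sum in control replicate 3, with 401 CPM there against 63.1 and 2.96 CPM in the other 2 controls. The 12 monocyte and macrophage markers summed to 212 to 229 CPM against 64.4 to 133 CPM; all 12 were tested, 4 were higher (CD68, CD14, MARCO and CSF1R), and none was at 0 in all libraries. Negative log2 fold changes that did not pass were those of C1QA (-1.05), C1QB (-0.93), C1QC (-0.80) and CD86 (-0.43). Within the high cuff pressure group, ALOX5AP, ALOX5 and the neutrophil sum were all highest in replicate 1. The macrophage sum was lowest in that replicate, at 212 CPM, against 229 and 218 CPM in replicates 2 and 3. Among controls, ALOX5AP was highest in replicate 1, as were the macrophage sum, to which C1QA, C1QB and C1QC gave 18.5, 20.3 and 29.2 CPM, and the neutrophil receptors CSF3R (1.11 CPM), CXCR1 (0.427 CPM) and FPR1 (0.513 CPM). The part of these cells in the ALOX5AP rise was not tested.

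Mast cells and eosinophils also carry this route. Of the 7 mast cell markers with a row, CPA3 and CMA1 had no read in any library and MS4A2 and FCER1A reached at most 0.583 CPM. KIT was read at 22.8, 9.89 and 8.41 CPM with high cuff pressure and at 40.3, 14.8 and 58.7 CPM in controls (log2 fold change -1.47, edgeR adjusted p = 0.13), and HDC at 3.18 to 12.9 CPM over the 6 libraries. The mast cell sum of 579 to 703 CPM was mostly GATA2, which other cells also express. The eosinophil markers summed to 0 with high cuff pressure and to at most 0.364 CPM in controls. Of the platelet markers, whose cells carry PTGS1, GP9 was at 0 in all libraries and ITGA2B did not pass (log2 fold change 0.64, edgeR adjusted p = 0.13). Tuft cell markers, an epithelial source of leukotrienes, summed to 20.5 to 76.9 CPM against 35.1 to 121 CPM.

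**Figure D3:**
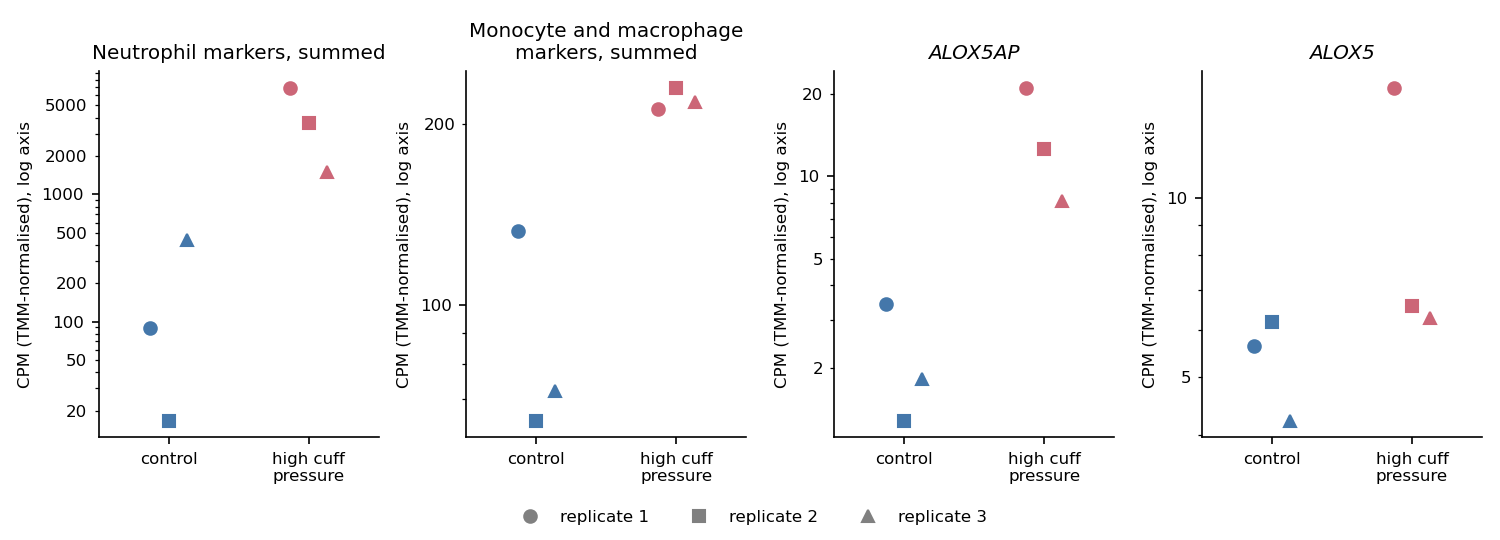
Summed TMM-normalised CPM of the neutrophil and of the monocyte and macrophage markers, and CPM of ALOX5AP and ALOX5, are plotted on log axes for each library, with marker shape giving the replicate. All 4 panels have the high cuff pressure libraries above the controls, from a narrow gap in ALOX5 to a wide one in the neutrophil sum (1510 CPM or more against 438 CPM or less).

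LTA4H encodes leukotriene A4 hydrolase, the enzyme that completes leukotriene B4. Its row (ENSOCUG00000005535) spans chromosome 4 from 75201595 to 75245579, minus strand. High cuff pressure libraries held 38.3, 39.5 and 55.7 CPM and controls 42.5, 45.8 and 46.6 CPM. The controls lay inside the range of the high cuff pressure group, whose replicate 3 was the highest of the 6. The means of 44.5 ± 9.68 and 44.9 ± 2.17 CPM gave a log2 fold change of -0.01 ± 0.23 (SE, edgeR adjusted p = 0.98), whose sign changed with the library left out.

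**Figure D4:**
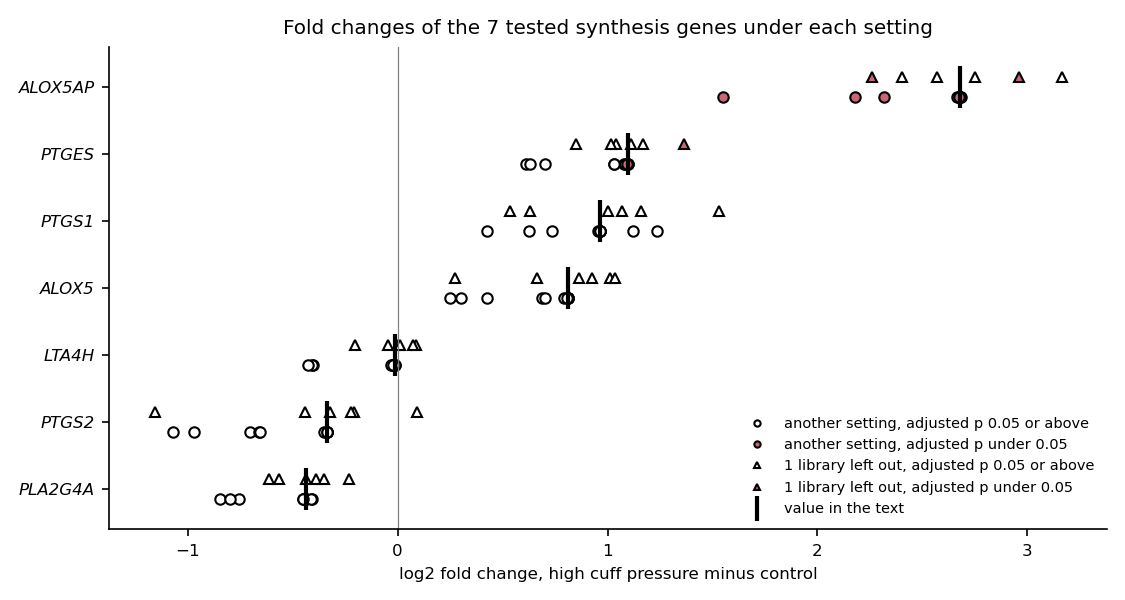
The horizontal axis gives the log2 fold change (high cuff pressure minus control) of each of the 7 tested genes; the vertical tick is the value in the text, circles are the 11 other settings and triangles the 6 fits with 1 library left out, filled where the adjusted p is under 0.05. ALOX5AP stays between 1.55 and 3.16 and PTGES above 0, whereas PTGS2 and LTA4H lie on both sides of 0.

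The likeness of other genes to each of the 7 was measured as Pearson's r of log2 CPM over the 6 libraries, among 10977 genes with a symbol and a mean of at least 1 CPM. The 6 points share library preparation, depth and cell makeup, and r is a description only. Closest to ALOX5AP were CSF2RA (r = 0.9990), HK3 (0.9969) and GMIP (0.9959), among 123 genes with r of at least 0.95. Closest to PTGES were CLUH (0.9976), UBA1 (0.9975) and LMNA (0.9963), among 258 such genes. The other 5 had fewer close genes. PTGS2 was most like YOD1 (0.982), ITGB8 (0.977) and SLC4A7 (0.975), with 36 genes at that level. PTGS1 was most like SLC25A25 (0.985), MYPOP (0.978) and PLEKHM2 (0.976), with 18. For ALOX5 they were MXD1 (0.984), RUNX1 (0.978) and PSD2 (0.969), with 10. For LTA4H they were NAP1L4 (0.991), PPP2R5C (0.980) and NFX1 (0.978), with 12, and for PLA2G4A they were ARL6IP1 (0.994), FAM131A (0.981) and SCAPER (0.973), with 7.

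Around these 8 genes, 68 names of other genes of eicosanoid release, synthesis, breakdown and reception were listed. Some genes stood under 2 names, as with PTGR3 and ZADH2 or PRXL2B and FAM213B. Of the names, 52 had a row, 5 had no read and 35 were tested. By edgeR, 2 were higher (PLA2G2D and GGT5) and 1 was lower (EPHX1), where 3.67% and 1.62% of all tested genes were; at an unadjusted p under 0.05 there were 9 higher and 3 lower, against 15.6% and 13.6% of all tested genes. Their median log2 fold change was 0.08, against -0.01 over all genes.

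Among 5 tested phospholipases, 1 was called. PLA2G2D, a secreted phospholipase A2 known from lymphoid tissue, was read at 31.7, 96.1 and 99.5 CPM with high cuff pressure and at 16.2, 20.9 and 13.0 CPM in controls. It rose by a log2 fold change of 2.18 ± 0.44 (SE, edgeR adjusted p = 0.039), with high cuff pressure replicate 1 nearest the controls. The call was lost in 5 of the 6 fits that left out a library, all but the one without high cuff pressure replicate 1, and also with limma-voom (adjusted p = 0.0503) and the replicate block (0.056).

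Of 6 other prostanoid synthases tested, edgeR called 0, with 1 higher and 1 lower at an unadjusted p under 0.05. The smallest p was that of PTGES2, a further prostaglandin E synthase, with 34.0, 55.3 and 42.7 CPM against 27.3, 24.4 and 25.1 CPM. Its groups did not overlap, but the log2 fold change of 0.78 did not pass (edgeR adjusted p = 0.090; DESeq2 adjusted p = 0.036). Of 5 tested prostanoid receptors edgeR also called 0, with 1 higher at an unadjusted p under 0.05, the prostacyclin receptor PTGIR (log2 fold change 1.52, edgeR adjusted p = 0.094), which had 6 to 20 counts per library. PTGER4, a receptor of prostaglandin E, had a log2 fold change of 0.20 (edgeR adjusted p = 0.61). Prostaglandin transport and breakdown had 0 of 4 called by edgeR and 2 higher at an unadjusted p under 0.05; the smallest p was that of ZADH2, a prostaglandin reductase (log2 fold change 0.85, edgeR adjusted p = 0.098).

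On the leukotriene side, 1 of 6 tested genes of formation and breakdown was called. GGT5, the gamma-glutamyltransferase that converts leukotriene C4 to D4, had 8.08, 20.7 and 14.8 CPM with high cuff pressure and 1.79, 3.41 and 4.45 CPM in controls. All 3 high cuff pressure libraries exceeded all controls, and the log2 fold change was 2.17 ± 0.48 (SE, edgeR adjusted p = 0.047); the call was lost with total-count scaling (0.055), with the replicate block (0.053), on the log2(FPKM + 0.1) scale in limma-trend (0.059) and without any 1 library other than high cuff pressure replicate 1. LTC4S, the leukotriene C4 synthase, did not pass (log2 fold change 0.95, edgeR adjusted p = 0.22). Of 2 tested leukotriene receptors edgeR called 0, with 1 higher at an unadjusted p under 0.05: the leukotriene B4 receptor LTB4R, with 2.46, 4.001 and 7.73 CPM against 2.48, 1.16 and 0.729 CPM (log2 fold change 1.72, edgeR adjusted p = 0.11), where control replicate 1 lay beside high cuff pressure replicate 1.

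Among 7 tested genes of other lipoxygenases, epoxygenases and resolution, EPHX1, the microsomal epoxide hydrolase, fell. It had 130.3, 199.6 and 91.2 CPM with high cuff pressure and 423, 409 and 479.6 CPM in controls, with no overlap. The log2 fold change was -1.64 ± 0.32 (SE, edgeR adjusted p = 0.034), and the call was lost with the replicate block (0.076) and without any 1 library other than high cuff pressure replicate 1.

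**Figure D5:**
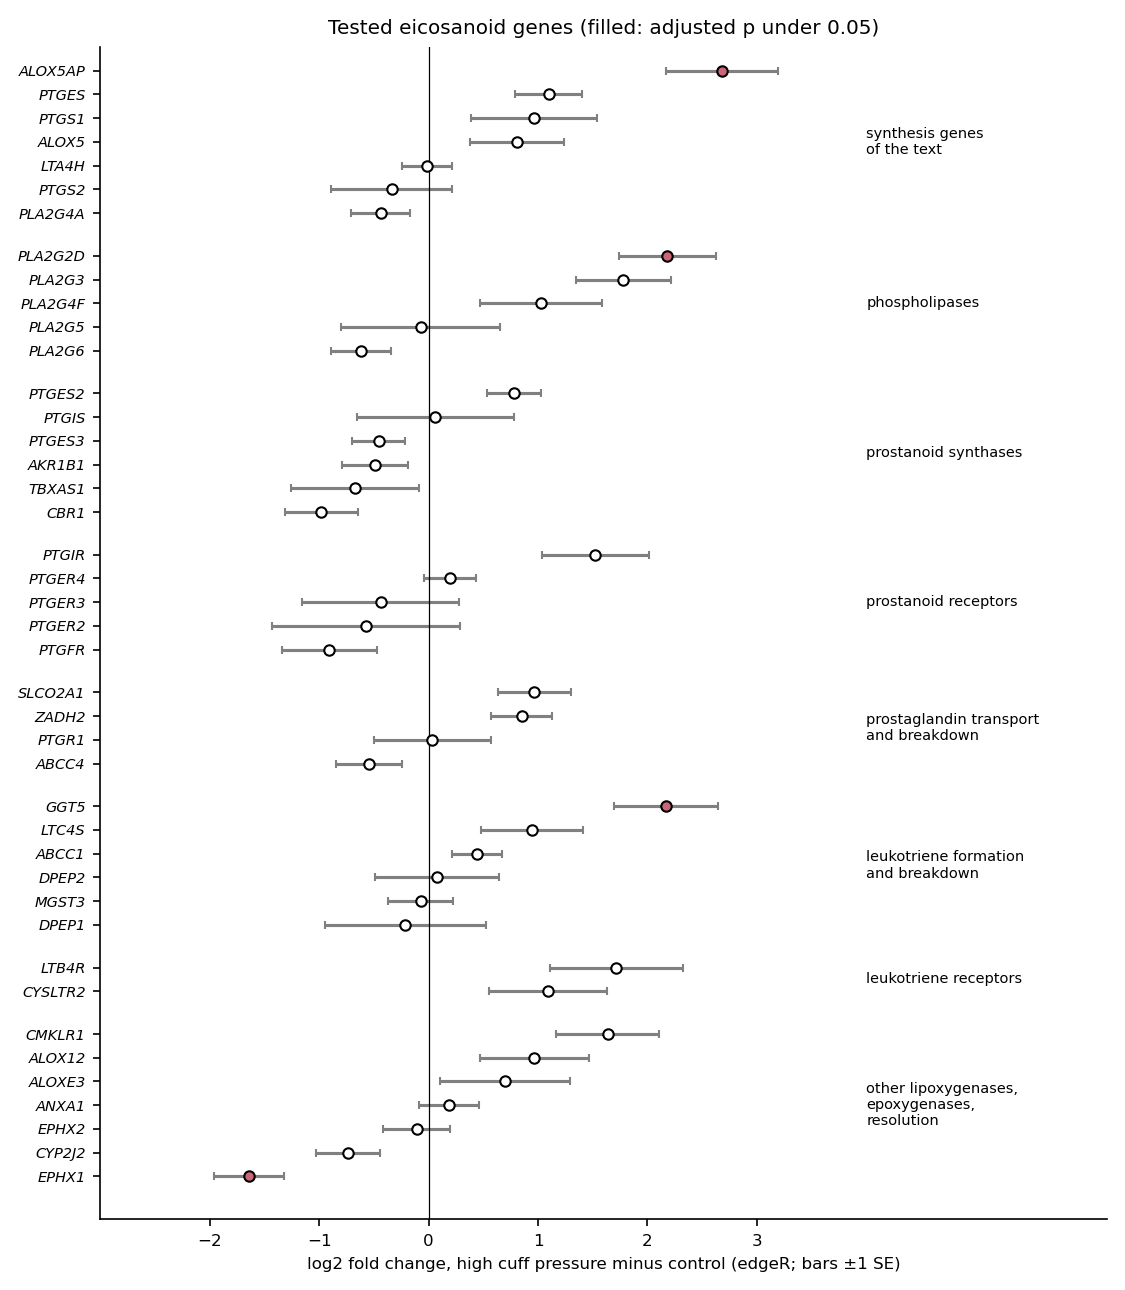
Points give the log2 fold change (high cuff pressure minus control, horizontal axis) of the 7 tested synthesis genes and the 35 other tested eicosanoid genes by list, with bars of ± 1 SE and filled points where the edgeR adjusted p is under 0.05. ALOX5AP (2.68), PLA2G2D (2.18) and GGT5 (2.17) are filled on the higher side and EPHX1 (-1.64) on the lower side.

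In the pathway part of the authors' deposited tables, arachidonic acid metabolism held 10 of their differential genes of 70 in the pathway, 4 higher and 6 lower. The rich factor, the share of differential genes in the pathway relative to that among all annotated genes, was 1.93 in the authors' deposited table, with their p of 0.037 and q of 0.29. None of the 10 was 1 of the 8 genes described here: 6 of the 8 carry the term, and the 2 that the authors marked as changed, ALOX5AP and HPGD, do not.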

How the data were processed

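PolyA RNA of tracheal mucosa was sequenced as 6 libraries, 3 per group, in 1 batch per the labels. Groups and replicate numbers were taken from the library names; control replicate 3 is titled S4, so what the numbers mean is uncertain. HISAT2 2.0.4, StringTie 1.3.3b and edgeR are listed, with no roles, per the submitters' processing notes. Neither the labels nor the file headers give the genome build, annotation, counting options or strand setting, so reads of overlapping or antisense genes cannot be told apart. The deposited table holds raw read counts and, per the file headers, FPKM values per gene, the latter scaled by the total count. A second deposited table gives the authors' p-value and q-value and their mark for each gene, and the authors' pathway table gives the rich factor (a ratio) with a p-value and q-value for each KEGG pathway.

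Counts were tested with edgeR 4.0.16 in R 4.3.3: filterByExpr on the groups (minimum count 10, total 15) left 13724 genes, libraries were scaled by TMM, and glmQLFit (robust) with glmQLFTest compared the groups, adjusted over all tested genes by Benjamini-Hochberg with a threshold of 0.05. CPM are TMM-normalised, and log2 CPM use a prior count of 2. Ratios within a library were compared by exact permutation. A gene with 0 counts in a group was set at 3 counts over the group. Chi-square per degree of freedom between libraries of a group was 56.1 to 137, so none was treated as a repeat. Of the tests, only the edgeR fit was tried on simulated counts. Alternatives were RLE factors, total counts only, DESeq2 1.42.0, limma-voom (limma 3.58.1), no robust estimation, no filter, at least 1 CPM in 3 libraries, a block on replicate number, log2(FPKM + 1) or log2(FPKM + 0.1) in limma-trend, and each library left out. A fit without mitochondrial genes and the alternatives for the HPGD bound were added after seeing the data.

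The 8 genes, the 68 names of other eicosanoid genes and the cell marker lists were chosen with earlier results of these data known. The text names the 8 genes, the called genes of each list or else its gene with the smallest p, the 3 genes most like each tested one, and markers where needed; CLDN7, LTC4S and PTGER4 are named outside this rule, after their values were seen.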

Additional observations from a re-analysis of the deposited data

How the results depend on the processing

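Single-gene fold changes were recomputed under the alternatives, except for PTGIR on either FPKM scale, where it failed the filter. Of these values, 199 kept their direction and side of the threshold, 25 lost the call, 7 gained one and 5 changed sign. The 25 losses were all in ALOX5AP, PLA2G2D, GGT5 and EPHX1. The other genes had no call to lose, so the 199 do not measure how stable the calls were. Counts over all genes moved most: 503 higher became 1461 with DESeq2 and 0 to 1362 with a library left out, and 222 lower became 1241 with total counts only, 1170 with DESeq2, 1748 with log2(FPKM + 1), 1448 with log2(FPKM + 0.1) and 0 to 1261 with a library left out. Of the 7 tested synthesis genes, 1 higher became 2 with DESeq2 and 0 to 2 with a library left out, and 0 lower became 1 without a filter, which admits HPGD. Of the other eicosanoid genes, 2 higher became 1 with total counts only, 7 with DESeq2, 1 with log2(FPKM + 0.1) and 0 to 6 with a library left out; 1 lower became 2 with total counts only, 2 with DESeq2, 5 with either FPKM scale and 0 to 2 with a library left out. The changes of sign were all in fits with a library left out: PTGS2 ranged from -1.16 to 0.093 and LTA4H from -0.20 to 0.090. Why these values moved was not tested.

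Libraries with the same number did not deviate together (correlations of -0.28, -0.20 and -0.23 for the 3 numbers, below the best other number in each case), so the numbers were not taken as pairs. With the replicate block the calls were 198 higher and 46 lower over all genes, ALOX5AP as the called one of the 8 (adjusted p = 0.031), and 0 and 0 among the other eicosanoid genes; the fit spends degrees of freedom on the block. The ratios gave exact permutation p of 0.50, 0.25 and 0.25 within blocks, where 0.25 is the smallest possible. At 10501734 to 14415754 counts a library, HPGD and PTGIR rest on at most 20 counts in any library, which limits the precision of their values.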

Other observations

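FPR2, a receptor of neutrophils for lipoxin A4 and formyl peptides, was too rare for the test and was singled out after its values were seen. It had 21, 19 and 7 counts with high cuff pressure and 0 counts in each control. Set against 3 counts over the control group, and with the high cuff pressure counts taken as exact, it was at least 20.2-fold higher. Without a filter its edgeR adjusted p was 0.024, where 2.65% of 20174 genes were called higher. No counting interval and no value with a library left out are given for FPR2. Of the other eicosanoid genes, HPGDS, MGST2, OXGR1, ALOX15B and PLA2G12B had no read in any library.

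Rabbits carry reductases of prostaglandin E, and 2 rows for such enzymes, chosen after their values were seen, were lower with high cuff pressure without passing the threshold. PGER4 (ENSOCUG00000026898), a different gene from the receptor PTGER4, had 93.3, 109 and 66.7 CPM against 161, 173 and 137 CPM in controls, a log2 fold change of -0.81 ± 0.24 (SE, edgeR adjusted p = 0.082). A row without a symbol (ENSOCUG00000021938) had 66.8, 106 and 81.0 CPM against 130, 158 and 193 CPM, a log2 fold change of -0.92 ± 0.26 (SE, edgeR adjusted p = 0.070). In both rows every high cuff pressure library lay below every control, as in 18.7% of all tested genes. Both belong to a multigene family whose members can share reads, so their values are uncertain.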
